A study of Mus musculus with 17 samples.

Results

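The genes described here are 39 interferon response genes, chosen by name as genes that interferons switch on or that carry the interferon signal. The list was drawn up with earlier results of these data known. Counts of these genes beside the share of all genes are therefore descriptive and not an independent test. The 39 genes were found through the gene names of the array probes, with older symbols matched through the probes' accessions. Probes for 38 of the 39 were present under these names, out of 26458 genes kept for testing. No probe carried the name Dtx3l, which encodes a partner of PARP9, and it is not analysed here.

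The arrays followed cells of the subventricular zone (SVZ), the germinal layer along the lateral ventricle that sends new neurons to the olfactory bulb after birth. Pups of the outbred CD1 strain were electroporated at postnatal day 1 to mark progenitors of the dorsal or of the lateral wall with green fluorescent protein (GFP), and GFP cells were isolated by fluorescence-activated sorting. Cells were taken 8 hours (2 arrays), 1 day (3 arrays), 2 days (2 arrays), 4 days (3 arrays), 7 days (3 arrays) and 14 days (4 arrays) after electroporation. Each of the 17 arrays, read in 2 colours, held 1 dorsal sample in the Cy3 channel and 1 lateral sample in the Cy5 channel, and the dyes were never swapped, so dye and wall cannot be told apart. The labels also give the dorsal RNA as polyA and the lateral as total RNA. The labels call the arrays of a time biological replicates without saying whether a sample came from 1 animal or several. P-values measure the spread between these samples. Every sample had been electroporated and sorted, so no group shows the level of these genes in cells that were not electroporated. The sources used here do not name the plasmid. A lower level in a sorted sample can reflect fewer cells of a type or less RNA per cell, and the arrays cannot tell these apart.

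The share of probes with a signal well above background ran from 41.0% to 76.7% for the dorsal samples and from 56.4% to 79.4% for the lateral ones. Arrays are grouped on 5 slides. Slide 1 held both 8 hour arrays with 1 array of 4 days and 1 of 7 days, slide 2 held all arrays of 1 day and slide 5 all arrays of 14 days. For 1 day and for 14 days, time and slide cannot be told apart. The dorsal sample of 14 days replicate 2 had the lowest median signal (30.3) and the lowest share of probes above background. That of 1 day replicate 1 came next in median signal (49.6), close to 4 days replicate 2 (53.3). Counts are given without these 2 arrays where they change. Levels below are normalized log2 intensities, in which a difference of 1 is a doubling. The level of a single gene is compared between arrays or walls for the same probe, never with that of another single gene. The median of the interferon response genes is also set beside the median of all genes on the same array. That comparison crosses probes, so it describes signal and does not show how much RNA these genes had relative to others.

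Interferons are secreted proteins that cells release when sensors such as RIG-I-like receptors or the cGAS-STING pathway detect foreign or misplaced RNA or DNA. Type I interferons bind the IFNAR receptor, whose kinases activate transcription factors that include STAT2. With IRF9 these form the ISGF3 complex, which binds the interferon-stimulated response element (ISRE) in the promoters of target genes, whereas interferon gamma acts through GAS elements. The induced genes block viral entry, translation and replication, and several of them, among them the sensors and IRF7, feed back on the pathway.

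Promoters of these genes were read from RefSeq (build GRCm38.p6), 250 bases before to 50 after each start, for the 28 of 38 genes found in its table. The ISRE core was searched as GAAA, any 2 bases, GAAA, and the GAS element as TTCNNNGAA, on both strands, with overlapping matches counted. An ISRE core was present in a promoter of 14 of the 28 genes, compared with 3.99% of the 27025 genes in the table. A GAS match was present in 7 of the 28, compared with 9.55% of all genes. A match is a description of these letters, not evidence of binding. The following stretches are from the genes described in detail below whose ISRE core lies before the start. They are shown because they hold the ISRE core, which was found in 14 of the 28 genes and not in all. Each is written 5′ to 3′ on the gene's own strand with the ISRE core in capitals, and TTTC repeats are the same core on the opposite strand.
Ifit1, chr19:34640779-34640838, plus strand, 110 to 51 bases before the start: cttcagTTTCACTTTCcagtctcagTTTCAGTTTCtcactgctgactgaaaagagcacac
Isg15, chr4:156200850-156200909, minus strand, 91 to 32 bases before the start: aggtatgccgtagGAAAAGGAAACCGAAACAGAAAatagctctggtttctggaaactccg
Gbp2, chr3:142620579-142620638, plus strand, 84 to 25 bases before the start: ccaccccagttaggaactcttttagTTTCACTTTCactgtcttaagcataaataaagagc
Gbp3, chr3:142559980-142560039, plus strand, 64 to 5 bases before the start: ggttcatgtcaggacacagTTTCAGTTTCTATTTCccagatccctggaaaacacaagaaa
Rsad2, chr12:26456538-26456597, minus strand, 145 to 86 bases before the start: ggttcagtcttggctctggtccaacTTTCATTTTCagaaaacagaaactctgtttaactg
Ifit1 held 2 separate cores before its start, Isg15 held 3 overlapping cores and Gbp3 held 2 overlapping cores. In Ifih1 the core lay 33 to 42 bases after the start and is not printed. Irf1 had a GAS match 90 to 82 bases before its start and no ISRE core in this window.

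Interferon response genes were high 8 hours after electroporation in both walls, lower at 1 and 2 days, and lowest from 4 days on, when the median of these genes was close to that of all genes on most arrays. The median level of the 38 genes was 14.51 and 14.46 on the dorsal arrays of 8 hours, against 8.64 and 8.54 for all genes on the same arrays. It was 14.04 and 14.30 on the lateral arrays. At 1 day it lay between 13.10 and 13.35 in the dorsal wall and between 11.43 and 12.27 in the lateral wall, and at 2 days between 12.18 and 12.38 and between 10.28 and 10.74. On the 10 arrays of 4, 7 and 14 days it ranged from 7.41 to 10.89 in the dorsal wall, with a median of 8.80, and from 7.21 to 10.74 in the lateral wall, with a median of 8.10. No array of 8 hours, 1 day or 2 days in the dorsal wall had a median as low as any of these later arrays, whereas the lateral arrays of 2 days overlapped with 1 array of 14 days.

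**Figure D1:**
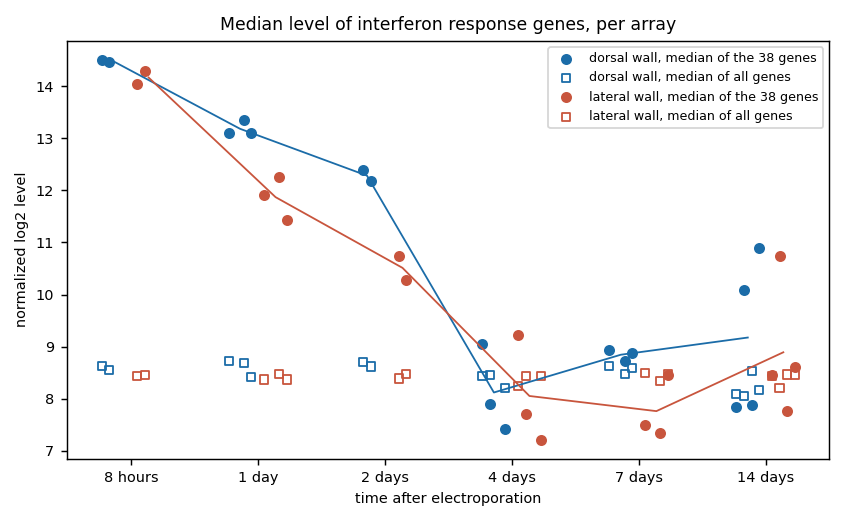
Median normalized log2 level of the 38 interferon response genes (filled circles) and of all genes (open squares) on each array, by time after electroporation (category axis, not to scale) and wall; lines join the means of the arrays. The filled circles fall from between 14.04 and 14.51 at 8 hours to between 7.21 and 10.89 from 4 days on, while the squares stay between 8.06 and 8.73.

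All 38 genes were well above background on both arrays of 8 hours in both walls. On the later arrays the number ranged from 18 to 38 in the dorsal wall and from 20 to 37 in the lateral wall. The fit compared the mean of the 4, 7 and 14 day means with 8 hours, by limma over all genes with Benjamini-Hochberg adjustment and a threshold of 0.05. In the dorsal wall 26 of 38 genes fell and none rose, where 1.98% of all 26414 genes tested fell and 0.663% rose. The median difference of the 38 genes was -5.05, against 0.16 for all genes. In the lateral wall 35 of 38 fell and none rose, where 2.18% of all genes fell and 1.94% rose, with a median difference of -5.75 against 0.15. Of the 38, 25 fell in both walls, 10 passed only the lateral test, Igtp passed only the dorsal test, and Adar and Irgm1 passed neither. Every array of 8 hours was above all 10 later arrays for 29 of 38 genes in the dorsal wall (5.13% of all genes) and for 33 of 38 in the lateral wall (4.54% of all genes). The dorsal count rests on both 8 hour arrays, because most of its calls were lost without either of them, and the lateral count dropped too. With 1 array left at that time, its spread was assumed to be that of the other times. Here and below, the share of all genes called in fits that left out an array is not given. A lower count in such a fit is therefore not shown to be particular to these genes. Of the 26 dorsal calls, 2 were kept whichever array was left out, 17 were lost only without an 8 hour array and 7 also without another array. Of the 35 lateral calls these numbers were 15, 12 and 8. The differences themselves moved little, since the median of the 38 genes stayed between -5.25 and -4.83 in the dorsal wall and between -5.89 and -5.45 in the lateral wall when any 1 array was left out.

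**Figure D2:**
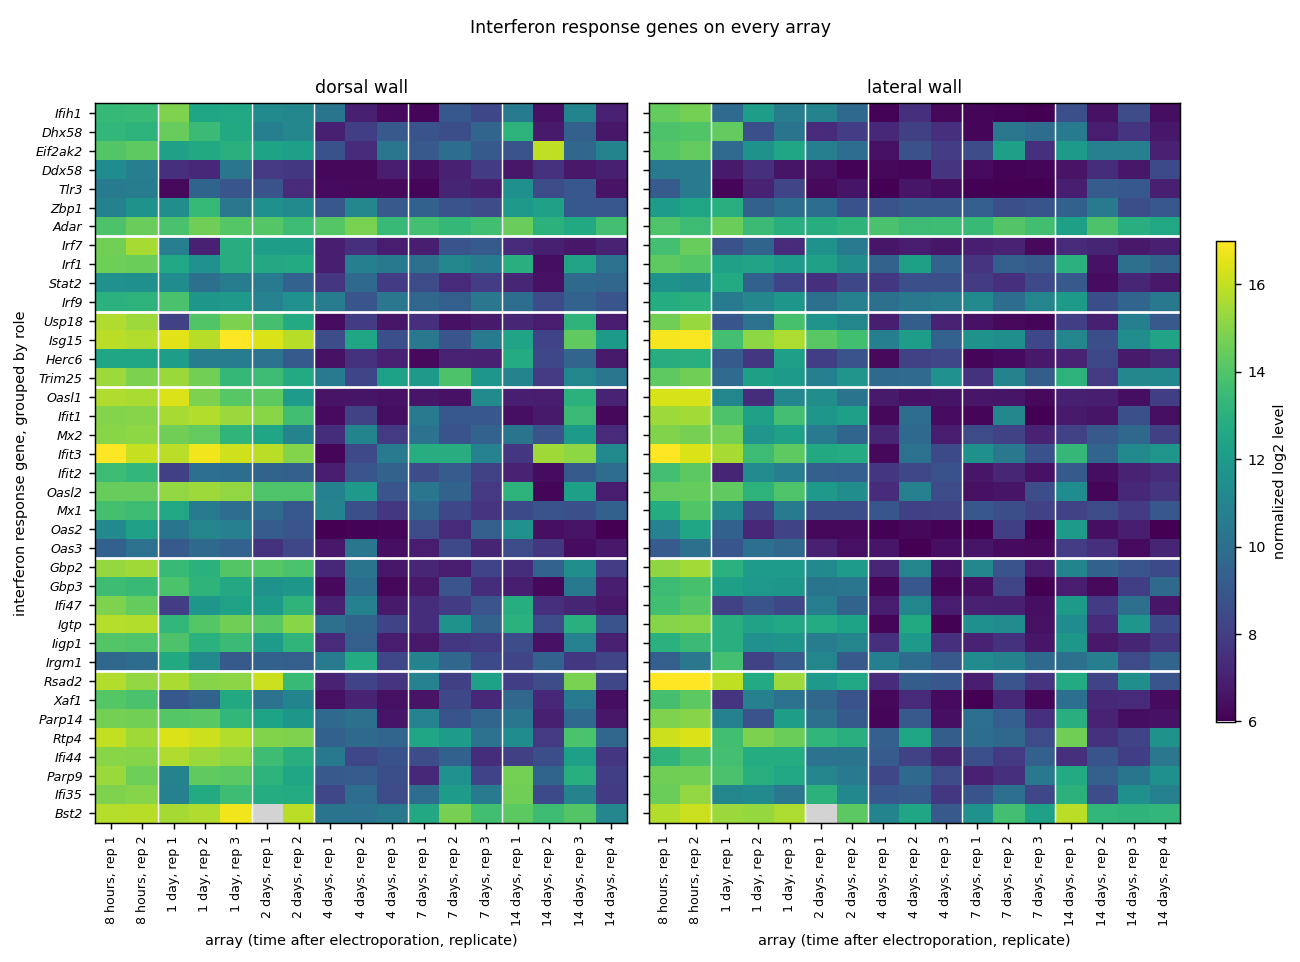
Normalized log2 level (colour) of the 38 interferon response genes (rows, grouped by role) on each array (columns, by time and replicate) in the dorsal wall (left) and the lateral wall (right); grey marks a flagged spot. The first columns are bright in nearly every row, and Adar stays bright throughout. In many rows 14 days replicate 1 (both walls) and replicate 3 (dorsal wall) are brighter than the other later arrays.

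On slide 1, the mean of the 2 arrays of 4 and 7 days was below that of the 2 arrays of 8 hours for 38 of 38 genes in each wall. Median differences were -5.88 and -6.24, but some were small, such as -0.13 for Adar and -0.45 for Irgm1 in the lateral wall. The 38 genes were read on the same arrays and are not independent. The share of all genes that were lower on this slide was not counted.

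Among the 7 RNA and nucleic acid sensors, 2 fell in the dorsal wall and 6 in the lateral wall, with medians of -4.15 and -3.80. Ifih1 encodes MDA5, a receptor for long double-stranded RNA. Its dorsal levels were 13.38 and 13.44 at 8 hours, 14.88, 12.48 and 12.58 after 1 day, and 11.22 and 11.07 after 2 days, and on the later arrays they ran from 6.15 to 10.98 with a median of 7.70. Its lateral levels were 14.39 and 14.72 at 8 hours, 9.86, 12.15 and 10.67 after 1 day, and 10.91 and 9.75 after 2 days, and later from 5.71 to 8.67 with a median of 6.32. No early array of either wall was as low as a later one. The later mean was 38.1-fold below 8 hours in the dorsal wall (log2 difference -5.25 ± 1.24 SE, limma adjusted p = 0.0415) and 229-fold below it in the lateral wall (-7.84 ± 0.69 SE, adjusted p = 2.86e-05). Only 6 and 4 of the 10 later arrays were well above background for Ifih1. A second, dimmer probe of Ifih1 gave smaller differences of -2.78 and -3.50. Dropping each array in turn, the dorsal Ifih1 call was kept in 6 of 17 fits and the lateral one in all 17.

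Dhx58 encodes LGP2, a regulator of the other RIG-I-like receptors. Its dorsal levels were 13.30 and 13.12 at 8 hours, 14.43, 13.49 and 12.67 after 1 day, and 10.75 and 11.08 after 2 days, with later arrays from 6.69 to 13.10. The highest of these, 14 days replicate 1, overlapped with the 1 day arrays, and the difference from 8 hours did not pass the test (-4.53 ± 1.21 SE, limma adjusted p = 0.0752). In the lateral wall Dhx58 stood at 13.91 and 14.03 at 8 hours and between 6.15 and 10.499 on the later arrays, a fall of 58.0-fold (-5.86 ± 1.33 SE, adjusted p = 0.0244). Its lateral levels after 1 day were spread widely, at 14.38, 8.69 and 10.25, and those after 2 days, 7.355 and 7.99, were already within the later range. Ddx58, which encodes RIG-I itself, fell in both walls, by 4.15 in the dorsal and by 3.80 in the lateral wall on the log2 scale. Tlr3 (an endosomal double-stranded RNA receptor), Zbp1 (a Z-nucleic acid sensor) and Eif2ak2 (PKR, a kinase that halts translation) passed only the lateral test, with lateral differences of -3.07, -3.13 and -5.12. Eif2ak2 reached 15.93 on the dorsal sample of 14 days replicate 2, above both 8 hour values. Adar, an RNA editing enzyme with a constitutive and an interferon-induced form, stayed high on every array, at 12.68 to 14.80 on the later dorsal arrays, and differed from 8 hours by -0.47 and -0.33. Its second, dimmer probe gave -2.31 and -1.79.

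Of the 4 transcription factors of the response, 4 passed the test as lower in the lateral wall and 3 in the dorsal wall. Irf7, the factor that amplifies interferon production and is itself interferon-induced, stood at 14.64 and 15.57 at 8 hours in the dorsal wall, at 10.71, 7.01 and 12.83 after 1 day, and at 12.14 and 12.17 after 2 days. Its later dorsal arrays lay between 6.73 and 9.12, with a median of 7.04, and 1 of the 3 arrays of 1 day was already within that range. Lateral Irf7 stood at 13.73 and 14.46 at 8 hours, at 8.72, 9.54 and 7.35 after 1 day, and at 11.60 and 10.53 after 2 days, against 6.26 to 7.33 later. Irf7 fell 198-fold in the dorsal wall (-7.63 ± 1.00 SE, limma adjusted p = 0.00103) and 153-fold in the lateral wall (-7.25 ± 0.46 SE, adjusted p = 1.94e-06).

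Irf1, the factor first found at the interferon beta promoter and strongly induced by interferon gamma, was high on several later arrays too. Dorsal levels were 14.58 and 14.53 at 8 hours, 12.54, 11.56 and 12.85 after 1 day, 12.62 and 12.74 after 2 days, and from 6.39 to 12.96 later. Lateral levels were 14.25 and 14.08 at 8 hours, 12.27, 12.43 and 12.02 after 1 day, 12.28 and 11.44 after 2 days, and from 6.52 to 13.04 later. The 8 hour arrays were above all later arrays, but those of 1 and 2 days were not. The difference from 8 hours passed the test in the lateral wall (-4.54 ± 1.16 SE, limma adjusted p = 0.0456) and not in the dorsal wall (-4.42 ± 1.32 SE, adjusted p = 0.118). Dropping each array in turn, the lateral call was kept in only 4 of 17 fits, and the change in the wall difference of Irf1 did not pass the test. Stat2 and Irf9, which encode subunits of ISGF3, fell by 3.31 and 3.44 in the dorsal wall and by 3.59 and 2.47 in the lateral wall. Of the 17 fits that left out 1 array, 4 kept the dorsal and 5 the lateral call of Stat2. For Irf9 these numbers were 15 and 3. For Irf9, a second probe on the array gave a smaller lateral difference of -0.75.

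All 4 measured genes of the ISG15 pathway and its ubiquitin ligases fell in both walls. Isg15, a ubiquitin-like protein that is attached to newly made proteins, was at 15.86 and 15.73 at 8 hours in the dorsal wall, at 16.50, 15.83 and 16.98 after 1 day and at 16.37 and 15.82 after 2 days. The later dorsal arrays ran from 8.21 to 14.31 with a median of 10.47. Its dorsal level thus held through 2 days, and no early array overlapped with a later one. Lateral Isg15 was at 16.84 and 16.90 at 8 hours, at 13.72, 15.12 and 15.66 after 1 day, at 14.17 and 13.68 after 2 days, and between 8.40 and 12.44 later. The later mean was 38.4-fold below 8 hours in the dorsal wall (-5.26 ± 1.22 SE, limma adjusted p = 0.0379) and 71.0-fold below it in the lateral wall (-6.15 ± 0.98 SE, adjusted p = 0.00259). With each array dropped in turn, the dorsal Isg15 call was kept in 7 of 17 fits and the lateral one in 16.

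Usp18 removes ISG15 from proteins and dampens signalling at the IFNAR receptor. Its dorsal levels were 15.71 and 15.40 at 8 hours, 8.15, 14.01 and 14.82 after 1 day, and 13.74 and 12.74 after 2 days. On 9 of the 10 later dorsal arrays it was at most 7.91, while 14 days replicate 3 reached 13.16. Only 3 later dorsal arrays were well above background, and the mean was 268-fold below 8 hours (-8.06 ± 1.63 SE, limma adjusted p = 0.0182). Lateral Usp18 was at 14.63 and 15.31 at 8 hours, at 8.93, 10.13 and 13.79 after 1 day, at 11.69 and 11.03 after 2 days, and from 6.15 to 10.77 later, a fall of 166-fold (-7.38 ± 1.08 SE, adjusted p = 0.00140). Herc6, the main ligase for ISG15 in mice, fell by 4.76 and 5.76, and Trim25, a ligase that acts on RIG-I, by 4.11 and 4.29. One of the other probes of Herc6 gave -1.03 and -0.77.

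The IFIT, OAS and MX families hold the classical antiviral effectors. In the dorsal wall 6 of 9 fell and in the lateral wall 9 of 9, with medians of -5.01 and -6.44. Oasl1, a member of the oligoadenylate synthetase family that restrains IRF7 translation, had the largest mean difference over both walls. Dorsal levels were 15.68 and 15.59 at 8 hours, 16.43, 14.83 and 14.13 after 1 day, and 14.27 and 12.02 after 2 days. On the later dorsal arrays the lowest was 6.52, the median 6.78 and the highest 13.05, on 14 days replicate 3. Lateral Oasl1 was at 16.33 and 16.36 at 8 hours and already at 11.07, 7.45 and 11.08 after 1 day, then at 11.43 and 10.23 after 2 days and from 6.29 to 8.05 later. The 8 hour and later levels did not overlap in either wall. The falls were 238-fold in the dorsal wall (-7.90 ± 1.48 SE, limma adjusted p = 0.0116) and 769-fold in the lateral wall (-9.59 ± 0.73 SE, adjusted p = 8.63e-06).

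Ifit1 binds viral RNA that lacks a methylated cap. It was at 14.97 and 15.02 at 8 hours in the dorsal wall, at 15.57, 15.75 and 15.33 after 1 day and at 15.03 and 13.69 after 2 days, so that the dorsal arrays of 1 day were all above those of 8 hours. The later dorsal arrays ran from 6.26 to 13.51 with a median of 7.47. Lateral Ifit1 was at 15.41 and 15.49 at 8 hours, at 13.93, 12.32 and 13.70 after 1 day, at 11.84 and 12.20 after 2 days, and from 6.01 to 11.04 later with a median of 6.54. No early array overlapped with a later one in either wall. Ifit1 fell 108-fold in the dorsal wall (-6.75 ± 1.40 SE, limma adjusted p = 0.0201) and 253-fold in the lateral wall (-7.99 ± 1.19 SE, adjusted p = 0.00158). Mx2, a dynamin-like antiviral GTPase, fell by 5.80 and 6.63, Ifit2 by 5.01 and 6.44, and Mx1 by 4.83 and 4.94, the dorsal value first. Ifit3 and Oasl2, which passed only the lateral test together with Oas3, had dorsal differences of -5.74 and -4.65. A second, dim probe of Oas2 gave -0.91 and 0.38 where the brighter one gave -4.35 and -4.88. The IFIT, OASL and GBP genes have close relatives in the genome, and cross-hybridization between them was not tested.

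The immunity-related and guanylate-binding GTPases attack the membranes of vacuoles that hold pathogens and respond strongly to interferon gamma. In the dorsal wall 5 of 6 fell, and in the lateral wall 4 of 6. Gbp2 was at 15.26 and 15.42 at 8 hours in the dorsal wall, at 13.42, 13.03 and 14.07 after 1 day, at 14.09 and 13.90 after 2 days, and from 6.69 to 11.44 later. Lateral Gbp2 was at 15.19 and 15.47 at 8 hours, at 13.01, 12.05 and 12.09 after 1 day, at 11.28 and 12.09 after 2 days, and from 6.61 to 11.06 later. Early and later arrays did not overlap for Gbp2 in either wall. It fell 143-fold in the dorsal wall (-7.16 ± 0.94 SE, limma adjusted p = 0.00101) and 87.8-fold in the lateral wall (-6.46 ± 1.08 SE, adjusted p = 0.00374).

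Gbp3 was at 13.58 and 13.41 at 8 hours in the dorsal wall, at 13.89, 13.16 and 12.66 after 1 day, at 11.65 and 11.82 after 2 days, and from 6.23 to 10.43 later. Lateral Gbp3 was at 13.53 and 13.79 at 8 hours, at 12.26, 11.85 and 11.82 after 1 day, at 10.28 and 10.34 after 2 days, and from 5.80 to 9.79 later. Again no early array was as low as a later one. Gbp3 fell 59.1-fold in the dorsal wall (-5.89 ± 1.05 SE, limma adjusted p = 0.00830) and 86.7-fold in the lateral wall (-6.44 ± 0.88 SE, adjusted p = 0.000782). Ifi47 and Iigp1 fell in both walls, by 6.35 and 6.15 in the dorsal wall and by 5.78 and 5.12 in the lateral wall. Igtp fell by 5.86 in the dorsal wall, and its lateral difference of -5.74 ± 1.65 SE did not pass the test. Irgm1 gave opposite pictures with its 2 probes. The brighter one differed from 8 hours by -0.22 and 0.23, and the other by -4.21 and -3.48.

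Of the 8 other effectors, 6 fell in the dorsal wall and 8 in the lateral wall. Rsad2, which encodes viperin, an enzyme that makes a chain-terminating nucleotide, was at 15.72 and 15.22 at 8 hours in the dorsal wall, at 15.60, 15.01 and 15.07 after 1 day, at 16.13 and 13.43 after 2 days, and from 7.04 to 14.81 later with a median of 8.29. Lateral Rsad2 was at 17.11 and 17.25 at 8 hours, at 15.94, 12.73 and 15.38 after 1 day, at 11.97 and 12.61 after 2 days, and from 6.90 to 12.71 later. The dorsal array of 14 days replicate 3 lay within the range of the early arrays, and the lateral array of 14 days replicate 1, at 12.71, lay above both lateral arrays of 2 days. Rsad2 fell 70.0-fold in the dorsal wall (-6.13 ± 1.46 SE, limma adjusted p = 0.0424) and 310-fold in the lateral wall (-8.28 ± 1.06 SE, adjusted p = 0.000485). With each array dropped in turn, the dorsal Rsad2 call was kept in only 3 of 17 fits and the lateral one in all 17.

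Xaf1 encodes a protein that promotes cell death. Its dorsal levels were 14.09 and 13.84 at 8 hours, 9.01, 9.51 and 12.69 after 1 day, 10.18 and 10.97 after 2 days, and from 6.40 to 10.49 later. Its lateral levels were 13.76 and 14.22 at 8 hours, 7.69, 10.77 and 10.17 after 1 day, 9.64 and 8.79 after 2 days, and from 5.92 to 10.02 later. The arrays of 1 and 2 days thus overlapped with the later ones in both walls, and those of 8 hours did not. Xaf1 fell 87.2-fold from 8 hours in the dorsal wall (-6.45 ± 1.01 SE, limma adjusted p = 0.00370) and 133-fold in the lateral wall (-7.05 ± 0.85 SE, adjusted p = 0.000357). Parp14 and Rtp4 fell by 5.67 and 5.09 in the dorsal wall and by 6.81 and 6.16 in the lateral wall, and Ifi44 fell by 6.08 in the dorsal and by 5.001 in the lateral wall. Parp9 and Ifi35 passed only the lateral test, with differences of -5.22 and -5.30. Bst2, which encodes tetherin, a protein that holds budding virus at the cell surface, kept a high level later, from 10.20 to 14.75 in the dorsal wall, and fell by 3.40 and 3.51. Its spot on 2 days replicate 1 was flagged and left out of the fit.

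**Figure D3:**
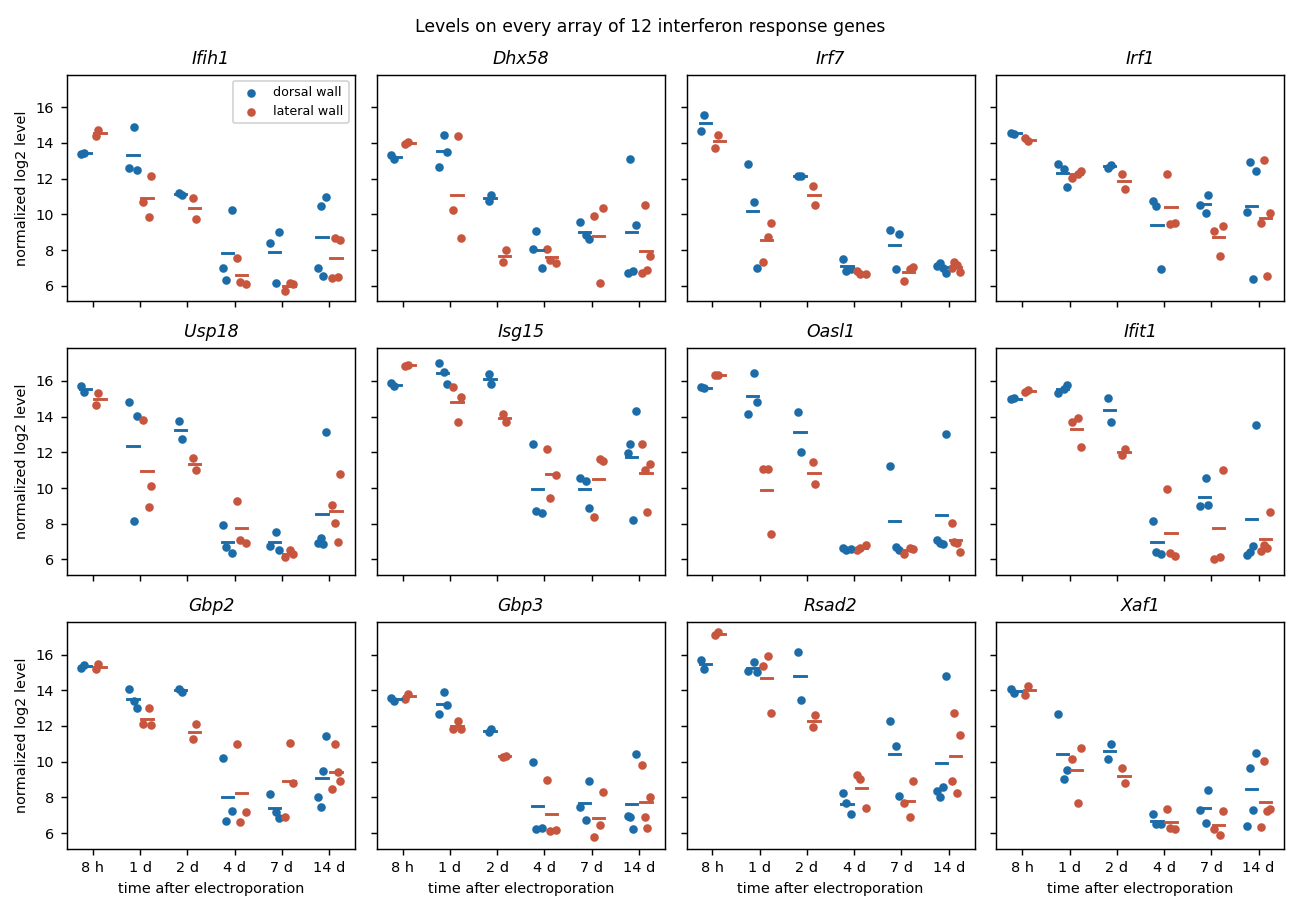
Normalized log2 level on every array of 12 interferon response genes by time after electroporation (h, hours; d, days) and wall; points are arrays and bars the mean of a time. All 12 genes are highest or nearly so at 8 hours, and single arrays of 14 days stand well above the others for Oasl1, Ifit1, Usp18 and Rsad2 in the dorsal wall.

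Between 8 hours and 1 day no gene of the 38 passed the test in the dorsal wall with limma, where 0.34% of all genes did, and 6 had an unadjusted p below 0.05, as did 13.7% of all genes. The dorsal median difference was -0.74, and 29 of the 38 were lower at 1 day. Counts of genes by sign, here and below, are given without the share of all genes. In the lateral wall 5 of 38 fell over the same step, where 0.786% of all genes fell, and the median difference was -2.46, with 37 of 38 lower. The 5 were Oasl1 (-6.48 ± 0.86 SE, limma adjusted p = 0.00240), Irf7 (-5.56 ± 0.54 SE, adjusted p = 0.000187), Ifih1 (-3.66 ± 0.81 SE, adjusted p = 0.0490), Ddx58 (-3.54 ± 0.56 SE, adjusted p = 0.00699) and Mx1 (-3.39 ± 0.68 SE, adjusted p = 0.0279). In the dorsal wall the same step was -0.50 ± 1.75 SE for Oasl1 and -4.92 ± 1.18 SE for Irf7. The difference between the walls in this step was not tested. The lateral count was 2 without either 8 hour array and 9 without 14 days replicate 1.

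From 1 day to the later arrays, 19 of 38 genes fell in the dorsal wall (2.31% of all genes fell) and 16 of 38 in the lateral wall (2.31% of all genes fell), and none rose. Medians were -3.42 and -2.74, and 38 of 38 differences were below 0 in each wall. The largest falls that passed the test were those of Oasl1 (-7.39 ± 1.26 SE, limma adjusted p = 0.00772), Ifit1 (-7.31 ± 1.19 SE, adjusted p = 0.00588) and Ifi44 (-6.45 ± 0.78 SE, adjusted p = 0.00107) in the dorsal wall. In the lateral wall they were Ifit1 (-5.85 ± 1.01 SE, adjusted p = 0.00585), Rsad2 (-5.78 ± 0.90 SE, adjusted p = 0.00308) and Oasl2 (-5.73 ± 0.92 SE, adjusted p = 0.00372). All arrays of 1 day were above all later arrays for 18 of 38 genes in the dorsal wall and 12 of 38 in the lateral wall, where 2.17% of all genes did so in either wall. At 2 days the counts were 13 and 10 of the 37 genes measured on both arrays, against 2.8% and 3.42% of all genes. The dorsal count of calls was 11 without 1 day replicate 1, and 12 without both 1 day replicate 1 and 14 days replicate 2.

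**Figure D4:**
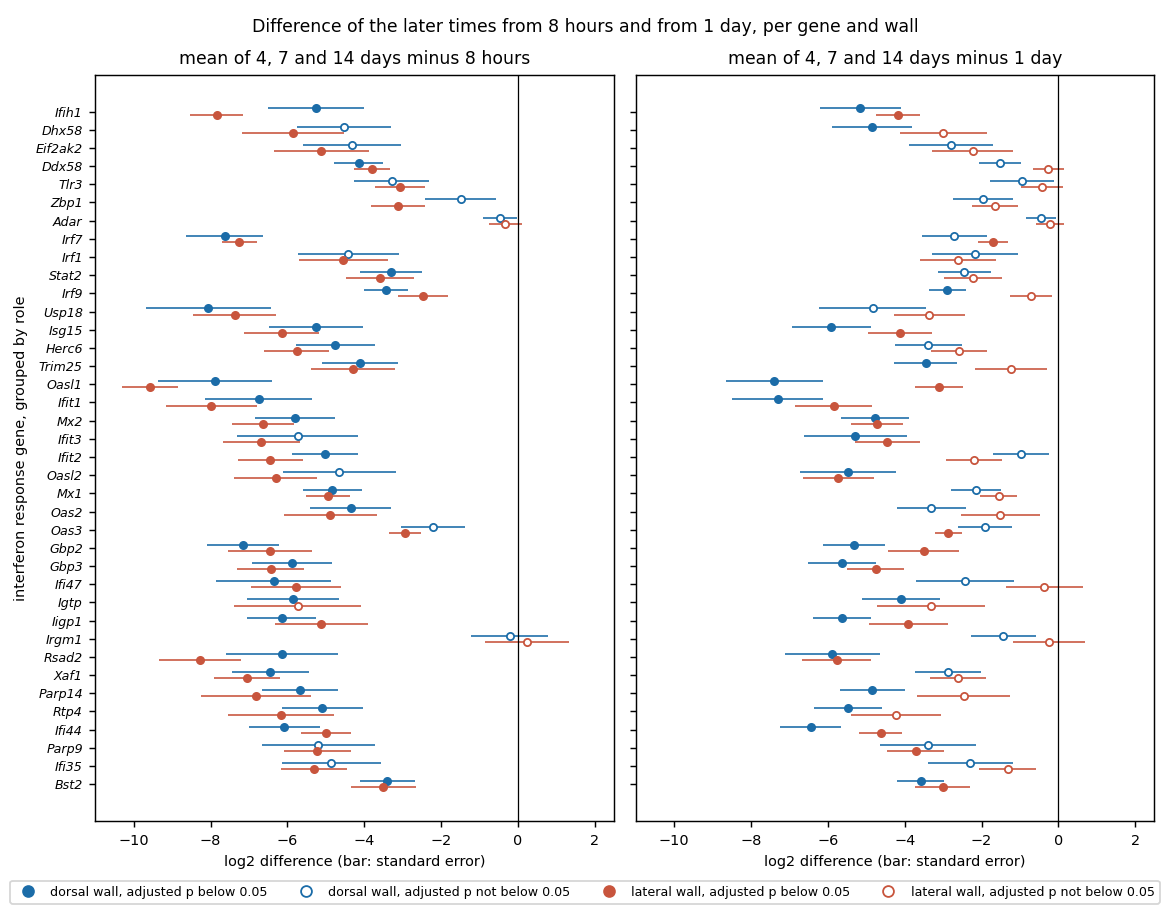
Log2 difference of the mean of 4, 7 and 14 days from 8 hours (left) and from 1 day (right) for each interferon response gene, by wall; bars are standard errors and filled points have a limma adjusted p below 0.05. Nearly all points lie left of 0, with Adar and Irgm1 near 0, and several lateral points move closer to 0 in the right panel.

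Most of the remaining drop fell between 2 and 4 days. The median difference of that step was -3.45 in the dorsal wall and -2.08 in the lateral wall, with 36 and 35 of 38 genes lower at 4 days. Only Gbp2 (-5.95 ± 1.103 SE, limma adjusted p = 0.0339) and Bst2 (-5.55 ± 1.07 SE, adjusted p = 0.0457) in the dorsal wall and Irf7 (-4.35 ± 0.54 SE, adjusted p = 0.00758) in the lateral wall passed the test, where 0.386% and 0.0454% of all genes fell. For Bst2 only 1 array of 2 days entered this test, and its spread was assumed to be that of the other times. For the step from 1 to 2 days no gene passed, with 0 dorsal and 6 lateral genes at an unadjusted p below 0.05 by limma (7.54% and 8.58% of all genes), and medians of -0.78 and -1.01; 0.00378% and 0.00756% of all genes were called. From 4 to 7 days no gene passed, with 2 and 0 genes at an unadjusted p below 0.05 (4.37% and 3.49% of all genes), and 0.0454% and 0.0265% of all genes called. From 7 to 14 days none passed either, with 3 and 7 genes at an unadjusted p below 0.05 (10.9% and 9.22% of all genes), and 0.11% and 0.223% of all genes called. A limma F test over the 6 times called 21 of 38 genes in the dorsal wall (3.49% of all genes) and 23 of 38 in the lateral wall (4.66% of all genes).

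The wall difference, dorsal minus lateral on the same array, was near 0 at 8 hours and above 0 at 1, 2 and 7 days for most genes. Its median over the 38 genes was 0.17 and -0.13 on the 8 hour arrays, 0.79, 1.61 and 1.28 on the 1 day arrays, and 1.70 on both 2 day arrays. At 1 day the mean difference was above 0 for 36 of 38 genes with a median of 1.39, and at 2 days for 37 of 38 with a median of 1.86. All 5 arrays of 1 and 2 days thus had higher levels in the dorsal wall for most of these genes. The 3 arrays of 7 days were also above 0, with medians of 0.46, 0.67 and 1.51 and 29, 24 and 29 of 38 genes higher in the dorsal wall. On the arrays of 4 and 14 days the median ran from -0.44 to 2.34, the highest on 14 days replicate 3. The share of all genes above 0 is not given beside these counts. On the arrays of 1 and 2 days the median level of all genes lay between 8.41 and 8.73 in the dorsal wall. In the lateral wall it lay between 8.37 and 8.47. Dye and RNA type (polyA or total) differ with the wall, so a wall difference cannot be told apart from theirs.

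**Figure D5:**
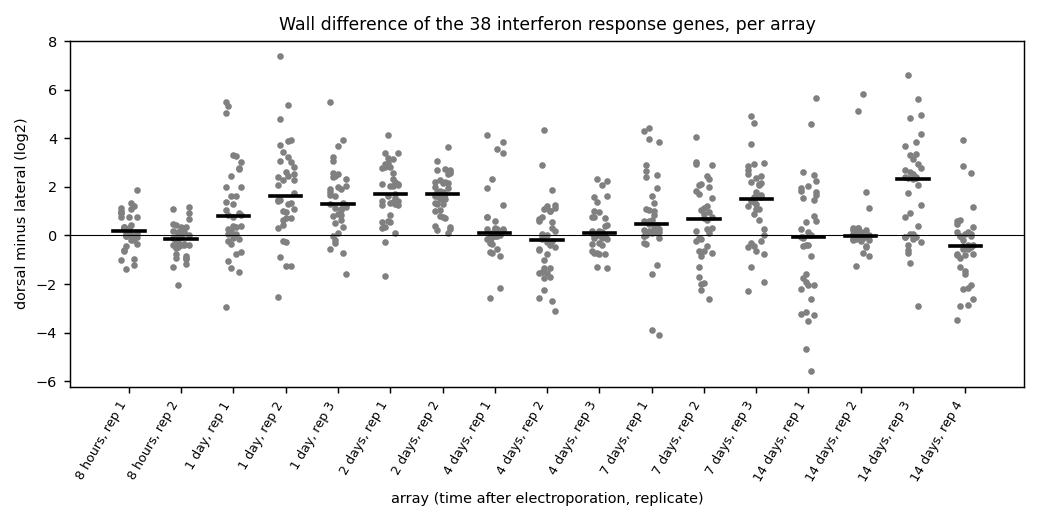
Dorsal minus lateral normalized log2 level of each of the 38 interferon response genes (grey points) on each array, with the median of the genes as a bar. The bars lie near 0 at 8 hours, above 0 on all arrays of 1, 2 and 7 days, and on both sides of 0 at 4 and 14 days.

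No single gene passed the limma test of the wall difference at any of the 6 times. Of all genes, 0.378% were called at 8 hours, 1.1% on day 1, 0.181% on day 2, 0% on day 4, 0.0265% on day 7 and 0.0227% on day 14. At an unadjusted p below 0.05 none of the 38 genes was found at 8 hours, where 7.34% of all genes were. Day 1 gave 10 of the 38 beside 16.1% of all genes, day 2 gave 5 beside 7.87% and day 4 gave 1 beside 5.47%. Day 7 gave 6 beside 5.16% and day 14 gave 1 beside 10.3%. For 1 day, a model with slide as a random block called 6 of the 38 and 9.61% of all genes. Its correlation within slides was -0.17, and all arrays of 1 day lie on 1 slide. A p that misses the threshold does not show equal levels, and the standard error of Trim25 at 1 day, for example, was 0.74 around a difference of 3.08. The mean wall difference over the 6 times was called for Trim25 alone, which was singled out after its values were seen. It was higher in the dorsal wall by 1.36 ± 0.32 SE (limma adjusted p = 0.0455), where 1.29% of all genes were higher. No gene was called without either array of 8 hours or of 2 days, replicate 1 or 3 of 4 days or of 7 days, or replicate 3 of 14 days, and 4 were called without 1 day replicate 1. No gene passed the test of a change in the wall difference from 8 hours to the later times (0.261% of all genes called, 0 of the 38 and 6.16% of all genes at an unadjusted p below 0.05) or from 1 day to the later times (0.227% of all genes called, 5 of the 38 and 12.2% of all genes unadjusted). Dye and wall were the same on every array, and when loess was replaced by median centring the median wall difference of the 38 genes was -1.01 at 8 hours and 0.49 at 1 day. The sign at 8 hours therefore depends on the scaling, and that at 1 day was above 0 under every scaling tried.

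Other genes of the pathway followed the same course only in part. These lists were chosen with results of these data known and are given as counts. Of 43 other interferon-stimulated genes, 20 fell from 8 hours in the dorsal wall and 31 in the lateral wall, and none rose, with medians of -4.07 and -4.39. For this list and those below, the share of all genes that fell was 1.98% in the dorsal wall and 2.18% in the lateral wall. Slfn5, a schlafen family gene, fell by 5.39 and 7.29, and Tor3a, an interferon-responsive torsin, by 6.26 and 6.98. Of the 7 interferon genes measured, Ifnb1 alone passed the test, in the lateral wall. Ifnb1 encodes interferon beta, the type I interferon that most cells make first. Its lateral levels were 10.60 and 11.28 at 8 hours and between 6.17 and 7.87 on all 15 other arrays, a fall to the later arrays of 3.98 ± 0.48 SE (limma adjusted p = 0.000337). The step from 8 hours to 1 day was of like size (-4.19 ± 0.56 SE, adjusted p = 0.00245). In the dorsal wall Ifnb1 was at 10.79 and 9.23 at 8 hours and between 6.71 and 9.49 on the other arrays, a difference that did not pass the test (-2.44 ± 0.61 SE, adjusted p = 0.0534). The higher lateral array of 8 hours and the higher dorsal one were not from the same replicate.

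Of 9 receptor subunits and kinases, none passed in the dorsal wall and Ifngr2 alone fell in the lateral wall, by 1.81. Among 14 genes of DNA sensing and sensor adaptors, 1 fell in the dorsal wall and 4 in the lateral wall. Ikbke, a kinase that activates IRF3 and IRF7, fell by 4.46 and 5.85, and Ifi204, a DNA sensor of the p200 family, had a called lateral difference of -5.65. Of 6 negative regulators, Socs1, which blocks JAK kinases, fell by 3.36 and 2.83. None of these lists had a gene that rose from 8 hours. A further list of 8 other STAT and IRF factors was measured, and its calls are not given here. Its summed linear level in the dorsal wall was 46550 to 54640 at 8 hours and 11500 to 144900 on the later arrays. In the lateral wall it was 74560 to 80270 and 11620 to 55400. From 1 day to the later arrays, 13 of the 43 other interferon-stimulated genes fell in the dorsal wall, and 6 fell and 1 rose in the lateral wall. Of all genes, 2.31% fell in each wall over this span, and the share that rose is not given here.

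Markers of other cell types were measured on the same arrays. Of 15 microglia and macrophage markers, none passed the test between 8 hours and the later arrays in either wall, where the medians were -1.003 and -2.59 and 14 of 15 were below 0 in each. Their summed linear level was 197300 to 228400 at 8 hours, 39700 to 240000 after 1 day and 12190 to 596000 later in the dorsal wall. The lateral sums were 596700 to 609500, 5357 to 300400 and 12150 to 556300. Aif1 and Csf1r, 2 of the 15, were well above background on all arrays of 8 hours and 1 day in both walls. The rest of the list is not counted in this way here, and the lateral sum of the list at 1 day went as low as 5357. These 2 genes therefore do not show that every early sample held such cells. From 1 day to the later arrays none of the 15 passed the test in the dorsal wall and P2ry12 alone rose in the lateral wall, with medians of 1.67 and 1.06 over the list.

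Of 8 neutrophil markers, 5 fell from 8 hours in the dorsal wall and 3 in the lateral wall, S100a8, S100a9 and Lcn2 among them in both, and their summed level went from 47820 to 62910 at 8 hours to 987 to 2953 later in the dorsal wall and from 41580 to 74830 to 1087 to 2528 in the lateral wall. Of 5 erythroid markers 3 fell in the dorsal wall and none in the lateral wall, and of 12 endothelial markers none and 2 fell. Of all genes, 1.98% fell from 8 hours in the dorsal wall and 2.18% in the lateral wall. None of 6 T and NK lymphocyte markers and none of 6 choroid plexus markers passed in either wall. The summed level of the lymphocyte markers at 8 hours was 962 to 972 in the dorsal wall and 678 to 782 in the lateral wall. Of 8 radial glia and SVZ progenitor markers, 2 and 1 fell, and of 8 neuroblast markers 5 rose in the dorsal wall and 6 in the lateral wall, where 0.663% and 1.94% of all genes rose. The part of these cell types in the decline of the interferon response genes was not tested.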

How the data were processed

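The deposited scanner files hold spot intensity values in both channels written by the Feature Extraction software of the scanner maker Agilent (versions 10.7.3.1 and 10.5.1.1, per the file headers), and RNA had been amplified by global PCR of cDNA, per the labels' protocols, which can distort levels of rare transcripts. The deposited value table holds log2 ratios of dorsal over lateral signal, found by comparison with the scanner ratios, and served as an alternative. Mean signals were background-corrected (normexp, offset 50), loess-normalized within arrays without control spots and Aquantile-normalized between arrays in limma 3.58.1 (R 4.3.3). Outlier-flagged spots were dropped and the spots of a probe averaged. Probes well above background on at least 2 arrays (36785 of 41174) were kept, and the brightest probe stood for a gene. Each wall, and the ratio, was fitted over all genes with a mean per time.

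The members and lists were chosen with earlier results of these data known. Values on every array are given for the 2 genes of each role with the largest absolute difference from 8 hours, averaged over both walls, among those called in either. The smallest signals sit at a floor, so a fall to it is understated. Alternatives covered normalization, filters, probes, weights, slide, replicate number, single arrays and the deposited table. The method was tested on simulated data. Figures were drawn with matplotlib 3.10.9 in Python 3.11.15.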

Additional observations from a re-analysis of the deposited data

Results flagged for a closer look

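The 4 arrays of 14 days were checked for 1 array far from the others, for the 12 genes described in detail in each wall, by the gap to the nearest array over the range (24 checks, Dixon's 95% critical value). Chance alone gives about 1 in 20 such results for a single check. The checks share the same 4 arrays and are not independent, so several results on 1 array are not separate findings. In the dorsal wall 5 genes had 1 array far above the other 3. The value was 13.05 for Oasl1 (others 6.89 to 7.10), 13.51 for Ifit1 (others 6.26 to 6.78), 13.16 for Usp18 (others 6.89 to 7.20), 10.43 for Gbp3 (others 6.23 to 6.94) and 14.81 for Rsad2 (others 8.03 to 8.56). All 5 were on replicate 3. In the lateral wall the highest array for Ifit1 was at 8.68 (others 6.45 to 6.81), again replicate 3.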

How the results depend on the processing

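Counts of the 38 genes called from 8 hours to the later arrays stayed within 1.5 times the main count in every processing alternative, from 18 to 36 in the dorsal wall and from 24 to 36 in the lateral wall, including a fixed slide block on slides 1, 3 and 4 that was added after the data were seen. No sign turned for the 12 genes described in detail. Among the others, the other probe turned the lateral difference from 8 hours of Oas2 (-4.88 to 0.38) and Irgm1 (0.23 to -3.48). Other counts moved further, and the cause was not tested. Except for the slide as a random block, the share of all genes called in each alternative is not given. A higher or lower count below therefore does not by itself show a stronger or weaker result for these genes. With the scanner's processed signals, 12 dorsal genes were called from 1 day, 2 lateral genes between 8 hours and 1 day, and 0 in the mean wall difference. The mean over probes called 2 dorsal genes between 8 hours and 1 day. Array weights called 6 dorsal and 11 lateral genes over that step, 36 in each wall by the F test, and 3 in the mean wall difference. Slide as a random block (consensus correlations -0.22, -0.24 and -0.17 for dorsal, lateral and ratio) called 31 dorsal and 29 lateral genes from 1 day (18.8% and 25.7% of all genes), 4 and 16 between 8 hours and 1 day (13% and 17.1%), 33 and 36 by the F test (28.8% and 35.6%), 6 in the wall difference at 1 day, 12 in its mean (12.5%) and 1 in its change from 1 day (3.82%). Without 1 day replicate 1 and 14 days replicate 2, 12 dorsal genes were called from 1 day, 1 in the wall difference at 1 day and 4 in its mean. The deposited value table called 0 in the mean wall difference. Replicate numbers were not treated as pairing the arrays. They follow the order of the arrays within a time. The labels use letters instead, which are b, c and d for 1 day and a, b, d and e for 14 days. Same-numbered arrays of different times correlated above 0.1 in 5 of 36 dorsal, 4 of 36 lateral and 0 of 36 ratio pairs. A block by replicate number called 1 dorsal and 3 lateral genes between 8 hours and 1 day and 0 in the mean wall difference. Pairing by the letters of the labels was not tested. Leaving out each array in turn gave 2 to 31 dorsal and 15 to 35 lateral calls from 8 hours, 11 to 22 and 13 to 20 from 1 day, 0 to 4 and 2 to 9 between 8 hours and 1 day, and 8 to 27 and 13 to 30 by the F test. The same fits gave 0 to 2 in the wall difference at 1 day, 0 to 4 in its mean, and 0 at 8 hours and for both changes. For single genes described in detail, 19 calls were lost and 7 gained over the processing alternatives, and 63 lost and 2 gained over the fits that left out 1 array. Few arrays per time limit the precision, and dim later values have only a floor.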
